A study of Homo sapiens with 9 samples.

Results

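The HOX cluster genes are the protein-coding genes of the 4 clusters HOXA, HOXB, HOXC and HOXD, and were taken here as every protein-coding row of the count table whose gene symbol is HOX, a cluster letter and a number. This gave 39 genes of the 58676 in the table, with 11 in HOXA, 10 in HOXB, 9 in HOXC and 9 in HOXD. On hg38 the HOXA members spanned chr7:27092993-27200106, the HOXB members chr17:48528526-48729178, the HOXC members chr12:53938765-54056030 and the HOXD members chr2:176092891-176190907.

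HOX genes encode homeodomain transcription factors that set regional identity along the body axis, and their order along the chromosome follows the order of the regions in which they act. Members with the same number in different clusters are paralogs, and low numbers belong to anterior and high numbers to posterior identity. Adult cells usually keep the set of HOX genes that their lineage acquired in the embryo, so the set that is on can be read as a positional code. HOXA9, HOXA10, HOXA11 and HOXA13 pattern the Müllerian duct into oviduct, uterus, cervix and vagina.

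OVCA433 is an established human line of ovarian serous adenocarcinoma. The cells carried lentiviral shRNA constructs under puromycin selection: the control vector (genotype WT in the labels), hairpin #1 against MPZL3, or hairpin #3 against MPZL3, with 3 libraries each, named A, B and C. Untransduced cells were not analysed here, and the methods call the control an empty vector in one place and a scrambled hairpin in another. The comparisons ask whether the MPZL3-depleted cells kept the HOX code of the control cells, and whether both hairpin arms held the same code. MPZL3 itself was at 15.6, 21.9 and 21.0 CPM (counts scaled to a common library size) in control libraries A, B and C, at 1.80 to 1.98 CPM with hairpin #1 and at 0.986 to 1.94 CPM with hairpin #3. The 2 hairpin arms did not overlap the control, and the log2 fold change of the 6 knockdown libraries against the 3 control libraries was −3.49 ± 0.19 (SE, edgeR adjusted p = 6.9e-08).

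Library totals ranged from 16850854 to 23890191 counts, and 15975 genes had enough counts to test. An edgeR adjusted p here comes from that tool's quasi-likelihood model, corrected by the Benjamini-Hochberg method across all 15975 genes. Genes were called where it was below 0.05 and the log2 fold change reached 1 in either direction. The pooled comparison sets both hairpins together against control. The methods describe 3 biological replicates per condition, and the p-values measure only the spread between these libraries. In bulk RNA, fewer cells of a type and less RNA per cell cannot be told apart.

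The line was checked against marker lists. Of the 8 ovarian serous markers, 6 were tested, and 4 of these had a pooled log2 fold change below 0. In the pooled comparison 1 was called higher and 2 lower, beside 14.7% of all genes called. KRT7 was at 1808 to 4230 CPM, MECOM at 78.8 to 128 CPM and PAX8 at 82.2 to 229 CPM over the 9 libraries, whereas WT1 was at 0 in every library. MUC16 was at 2.09 to 4.11 CPM in control and at 0 in all 6 knockdown libraries, at least 22.6-fold lower with hairpin #1 and at least 19.9-fold lower with hairpin #3. EPCAM fell by 5.81 ± 0.21 on the log2 scale (edgeR adjusted p = 2.2e-09). All 5 of the 5 tested fibroblast markers rose in the pooled comparison, beside 7.26% of all genes that rose. With hairpin #3 alone 4 of the 5 were called, and the defining marker DCN was at 0 in all libraries. The summed level of the 8 fibroblast markers was 18.6 to 22.1 CPM in control, 109 to 446 CPM with hairpin #1 and 502 to 870 CPM with hairpin #3. Of the other lists, 2 of 3 tested endothelial markers rose (CDH5 and KDR) with PECAM1 at 0.24 CPM or less throughout. The one with the larger rise (log2 fold change 4.86) passed the count filter only with the knockdown libraries included, the groups where it is high. These rises are therefore given as values. The 4 endothelial markers summed to 0.547 to 1.02 CPM in control. Their sum was 4.15 to 6.64 CPM with hairpin #1 and 5.11 to 7.49 CPM with hairpin #3. In the pooled comparison 1 of 3 tested mesothelial markers fell (UPK3B), and the 1 tested immune marker was not called. Of all genes 14.7% were called in that comparison. With hairpin #3 all 3 tested mesothelial markers were called, 2 higher and 1 lower, beside 15.3% of all genes. The part of these markers in the HOX differences was not tested.

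The promoter windows of some members are shown first, because HOX start sites commonly lie in CpG-dense DNA. A RefSeq promoter (GRCh38.p14) was found for 20 of the 39 members, in 27 windows because HOXA3 and HOXA10 have several starts. Among those not matched were HOXA5, HOXB2 to HOXB9, HOXB13, HOXC6, HOXC8 to HOXC13 and HOXD9. The 150 bases before the start are printed 5′ to 3′ on the gene's strand, with CpG dinucleotides in capitals. They are shown for HOXA10, which fell with both hairpins, for its neighbour HOXA9, which did not pass the test, and for HOXD11, which had no count in any library.
HOXA10: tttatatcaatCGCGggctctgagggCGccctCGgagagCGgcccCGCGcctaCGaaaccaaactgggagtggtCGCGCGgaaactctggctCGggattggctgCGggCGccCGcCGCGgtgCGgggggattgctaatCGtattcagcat
HOXA9: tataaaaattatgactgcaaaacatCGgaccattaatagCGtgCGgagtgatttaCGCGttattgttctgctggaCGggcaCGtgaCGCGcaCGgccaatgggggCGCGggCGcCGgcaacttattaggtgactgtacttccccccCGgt
HOXD11: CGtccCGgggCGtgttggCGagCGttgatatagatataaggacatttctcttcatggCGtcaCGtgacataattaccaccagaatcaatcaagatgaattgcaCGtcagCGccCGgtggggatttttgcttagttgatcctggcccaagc

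The HOXA10 window is chr7:27174321-27174470 on the minus strand, within introns of HOXA10 and HOXA9 in GENCODE 29. The HOXA9 window is chr7:27165538-27165687 on the minus strand, intronic to HOXA9 by the same annotation. The HOXD11 window is chr2:176107130-176107279 on the plus strand, within the span of HOXD11 and outside its exons. Over the full 250 bases before the start, HOXA10 held 24 CpGs, HOXA9 held 20 and HOXD11 held 23. These RefSeq starts lie 5941, 9643 and 3064 bases from the starts deposited for the genes. HOXA10 has a second RefSeq start 400 bases from the deposited one, whose window held 19 CpGs and is not printed because GENCODE 29 places exons there. The median was 19 CpGs over the 27 member windows, from 0 to 40, and 11 over all 35116 promoters of the table. The letters TGATTNAT on either strand, a sequence bound by PBX and HOX proteins together, were in windows of 2 of the 20 members (HOXA2 and HOXD11) and in 2.48% of all promoters. The GC box CCGCCC was in windows of 10 of the 20 members and in 42.6% of all promoters. The letters CACCTG, also scanned, were in windows of 1 of the 20 members and in 17.5% of all promoters. The letters AGGTCA were in windows of 0 of the 20 members and in 12.1% of all promoters. A member was counted if any of its windows held the motif, whereas the background is per promoter. The member and background shares are therefore not directly comparable.

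The code of the control cells was described with 3 states per gene and group. A gene was on at 1 CPM or more in every library of the group, at the floor at 3 counts or fewer in every library, and between otherwise. 3 counts corresponded to 0.128 to 0.176 CPM, a limit that covers counting error only. In control, 20 of the 39 members were on, with 6 of 11 in HOXA, 9 of 10 in HOXB, 5 of 9 in HOXC and 0 of 9 in HOXD. Thus HOXB was on along nearly all its length, HOXA and HOXC in part, and no HOXD gene was on.

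**Figure D1:**
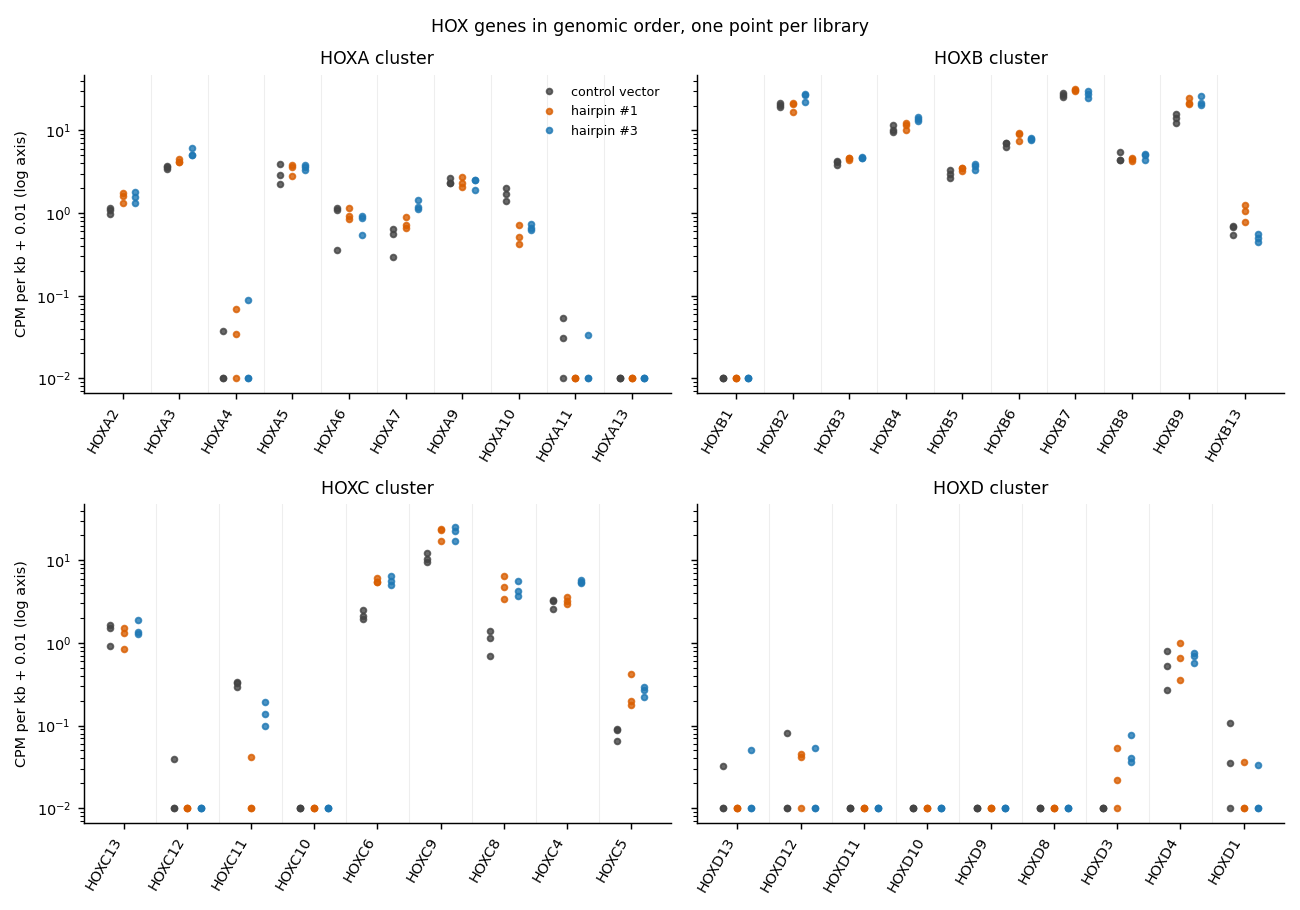
HOX members named here in order of start coordinate in each cluster, as CPM per kilobase of gene length plus 0.01 on a log axis, one point per library, coloured by group. Points on the lowest line had no count. The HOXB panel is filled except HOXB1, the HOXD panel is nearly empty, and the knockdown points lie above control for HOXC6, HOXC8 and HOXC9 and below for HOXA10.

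By these coarse states, both hairpin arms were nearly the same as control. The share of all genes that kept their state was not counted, so the agreement is not shown to be particular to HOX genes. A level can also change within a state: HOXC8 was on in every group at a 4.37-fold pooled rise. 33 of the 39 members were in the same state in all 3 groups, with 20 on, 12 at the floor and 1 (HOXD4) between. No member was on in one group and at the floor in another. The 6 members that differed in state moved by 1 step: HOXA6 and HOXA7 between the on and the between state, and HOXC5, HOXC11, HOXD1 and HOXD3 between the floor and the between state. Hairpin #1 and hairpin #3 gave the same state for 36 of the 39 members. The number of members on was 22 with hairpin #1 and 21 with hairpin #3, and HOXB, HOXC and HOXD had the same number on in every group (9, 5 and 0).

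The 12 members at the floor in every group were spread over all 4 clusters. 7 members had no count in any of the 9 libraries: HOXA13, HOXB1, HOXC10, HOXD8, HOXD9, HOXD10 and HOXD11. HOXA4, HOXA11, HOXC12, HOXD12 and HOXD13 were also at the floor throughout and reached 0.138 CPM at most. HOXA4, an anterior-group factor, was therefore at the floor between HOXA3 and HOXA5, which were both on in all 9 libraries. In GENCODE 29, 47.3% of the exon bases of HOXA4 are shared with other genes, and the assignment of reads there is uncertain. Its few counts thus do not establish silence. HOXA11 and HOXA13, which mark the more caudal Müllerian derivatives, were at or near 0 in control as well as in the knockdown libraries.

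Levels between genes were compared as CPM per kilobase of the deposited gene length. The control ranks were led by HOXB7 (26.8 ± 1.61, SD, n = 3), HOXB2 (20.3 ± 1.16), HOXB9 (14.1 ± 1.75), HOXC9 (10.8 ± 1.36) and HOXB4 (10.4 ± 1.16), and HOXC9 and HOXB4 did not differ beyond their spread. The highest member of HOXA was HOXA3 (3.59 ± 0.174), followed by HOXA5 (3.02 ± 0.827) within its spread, and the highest of HOXD was HOXD4 (0.521 ± 0.266). HOXB members together made up 72.8% ± 1.21 (SD, n = 3) of the summed HOX level in control, HOXC members 14.99% ± 1.09, HOXA members 11.7% ± 0.567 and HOXD members 0.484% ± 0.254. By position, paralog groups 1 to 3 held 24.5% ± 1.90 of the control sum, groups 4 to 8 held 50.4% ± 0.845 and groups 9 to 13 held 25.1% ± 1.34.

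The balance between clusters differed between control and both hairpin arms. The HOXC share was 14.2%, 14.5% and 16.2% in control A, B and C, 19.8%, 25.3% and 24.3% with hairpin #1 and 21.7%, 24.95% and 23.1% with hairpin #3. All 6 knockdown libraries lay above the control range. The HOXB share was 71.5% to 73.9% in control, 64.9% to 70.4% with hairpin #1 and 64.1% to 67.8% with hairpin #3, below control in all 6 libraries. The summed HOXB level itself was above control in all 6, at 86.1 to 94.4 CPM per kilobase in control, 101 to 111 with hairpin #1 and 102 to 120 with hairpin #3. The lower HOXB share is therefore not a lower HOXB level. The summed level of all HOX members was 125 ± 6.96 CPM per kilobase in control, 159 ± 7.43 with hairpin #1 and 167 ± 14.8 with hairpin #3 (SD, n = 3). By paralog group, group 9 differed most in absolute level, with 27.3 ± 3.09 CPM per kilobase in control, 46.6 ± 5.09 with hairpin #1 and 46.7 ± 6.37 with hairpin #3. Group 10, of which HOXA10 was the sole member with counts, had 1.69 ± 0.301 in control, 0.542 ± 0.150 with hairpin #1 and 0.669 ± 0.0552 with hairpin #3, a smaller absolute but larger relative difference. These sums are given as descriptions without a test.

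**Figure D2:**
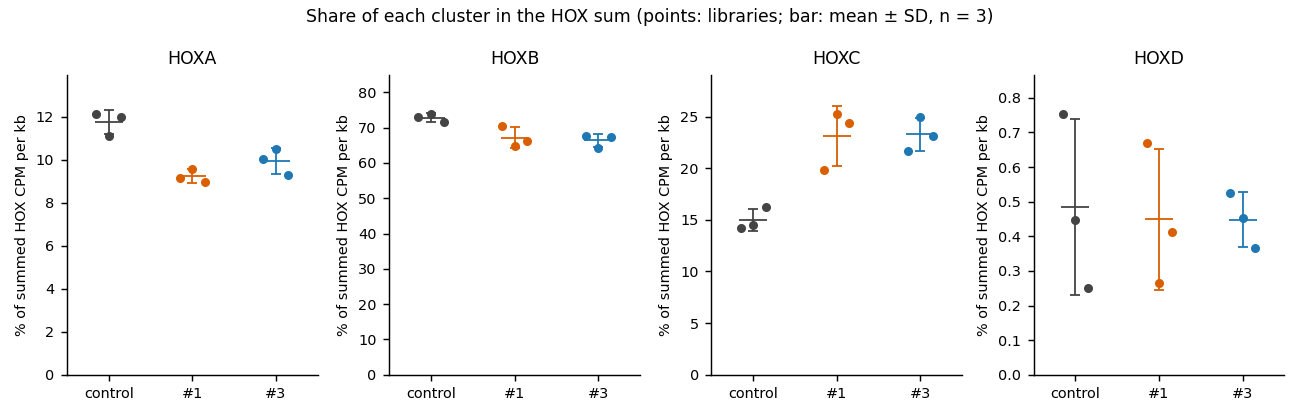
Share of each cluster in the summed HOX level (% of summed CPM per kilobase), one panel per cluster with its own axis from 0. Points are libraries and bars are the mean ± SD (n = 3). The HOXC share was 14.2% to 16.2% in control and 19.8% to 25.3% in the knockdown libraries, and the HOXB share was lower in all 6 knockdown libraries although the HOXB sum was higher in each.

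Of the 39 members, 24 had enough counts to test: 8 in HOXA, 9 in HOXB, 6 in HOXC and 1 in HOXD. In the pooled comparison 6 of the 24 were called, or 25%, against 14.7% of all 15975 genes. HOXC6, HOXC8, HOXC9 and HOXA7 rose, beside 7.26% of all genes that rose, and HOXA10 and HOXC11 fell, beside 7.4% that fell. Without HOXC11, which passed the count filter through control alone, 5 of 23 were called, or 21.7%. By cluster, 4 of the 6 tested HOXC members, 2 of the 8 HOXA members, 0 of the 9 HOXB members and 0 of the 1 HOXD member were called. The median pooled log2 fold change was 0.77 in HOXC, 0.25 in HOXB, 0.12 in HOXA and 0.26 over all 24, beside 0.0045 over all genes. By adjusted p alone 10 of the 24 passed (7 higher and 3 lower), against 33% of all genes (15.9% higher and 17% lower), and in HOXB this added HOXB9. The knockdown libraries did not overlap control for 11 members (9 higher and 2 lower), beside 33.1% of all genes. Against control, 6 members were called with hairpin #1 (background 16.3%) and 5 with hairpin #3 (background 15.3%), in comparisons that share the control libraries. By adjusted p alone it was 10 with each hairpin, beside 37.8% of all genes with hairpin #1 and 34.7% with hairpin #3.

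**Figure D3:**
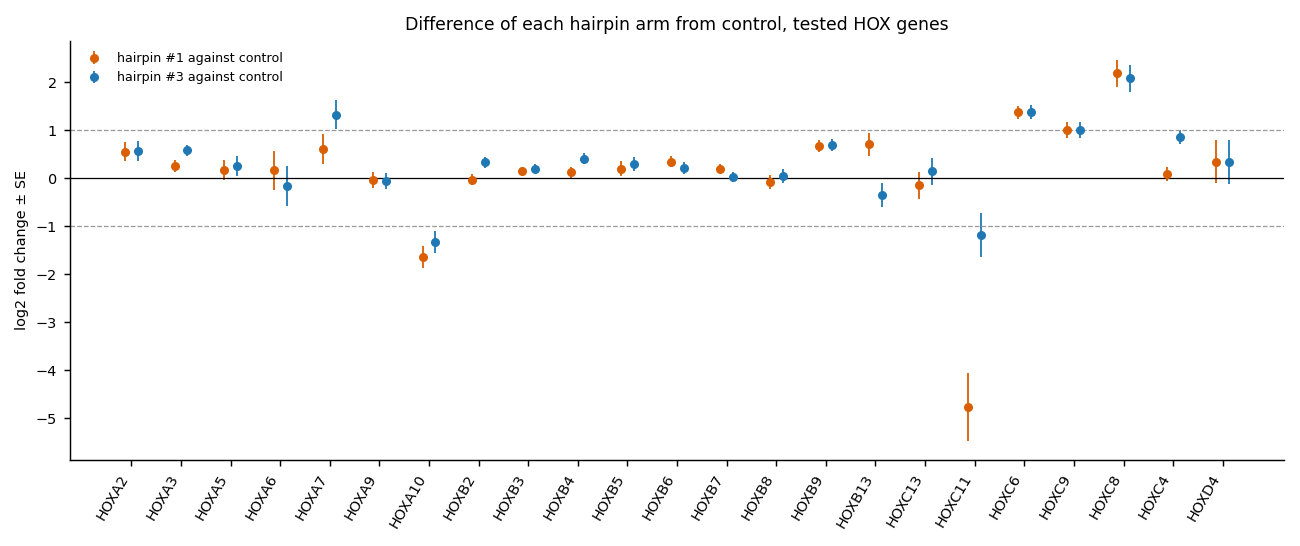
Log2 fold change ± SE of each hairpin arm against control for tested members, in genomic order within clusters. Dashed lines mark log2 fold changes of 1 and −1. HOXC6, HOXC9 and HOXC8 lie near or above the upper line and HOXA10 below the lower line with both hairpins, and HOXC11 reaches −4.76 with hairpin #1 and −1.19 with hairpin #3.

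The rise in HOXC was carried by HOXC6, HOXC9 and HOXC8, which follow each other by start coordinate. HOXC8, a thoracic-level patterning factor, was at 1.31, 2.14 and 2.58 CPM in control, at 6.39, 8.84 and 12.1 CPM with hairpin #1 and at 6.99, 7.89 and 10.5 CPM with hairpin #3. All 6 knockdown libraries were above every control library and the hairpin arms overlapped. The pooled log2 fold change was 2.13 ± 0.27 (SE, edgeR adjusted p = 8.3e-05), a 4.37-fold rise and the largest rise among the tested members. With hairpin #3 against hairpin #1 the log2 difference was −0.10 ± 0.25 (edgeR adjusted p = 0.857).

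HOXC6, which also acts at thoracic levels and in mammary development, was at 6.82, 7.51 and 8.74 CPM in control, at 19.2, 21.4 and 19.1 CPM with hairpin #1 and at 17.6, 22.7 and 19.8 CPM with hairpin #3. The groups did not overlap and the hairpins were alike in range. HOXC6 rose by 1.38 ± 0.13 on the log2 scale (edgeR adjusted p = 6.1e-06), and its call held under every alternative tried, as did those of HOXC8 and HOXA10. In GENCODE 29, 15.7% of its exon bases are shared with HOXC4, HOXC5, HOXC9 or HOXC-AS2, and the assignment of reads in those bases is uncertain.

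HOXC9, which represses other HOX genes in motor neurons and was the highest HOXC member, was at 16.2, 17.5 and 20.6 CPM in control, at 29.03, 39.4 and 40.6 CPM with hairpin #1 and at 28.6, 41.9 and 38.1 CPM with hairpin #3. Every knockdown library was above control. Of the exon bases of HOXC9, 9.71% are shared with HOXC-AS2 and HOXC6, so HOXC9 and HOXC6 are not wholly separate measurements. The HOXC9 log2 fold change of 1.00 ± 0.15 (edgeR adjusted p = 0.00032) sat on the fold threshold. It fell just under it when control A (0.93), control B (0.98), hairpin #1 B (0.97) or C (0.97), or hairpin #3 B (0.96) or C (0.99) was left out, with the adjusted p under 0.05 each time. With hairpin #3 it was 1.00 ± 0.17 (edgeR adjusted p = 0.00035), and 0.99 with the replicate letter as a block.

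HOXC4, at the anterior end of the cluster, set the hairpins apart. It was at 8.80, 6.91 and 8.97 CPM in control, at 7.94, 9.86 and 8.65 CPM with hairpin #1 and at 14.8, 15.7 and 14.5 CPM with hairpin #3. Hairpin #1 overlapped control and hairpin #3 was above both. Hairpin #3 exceeded hairpin #1 by 0.77 ± 0.14 on the log2 scale (edgeR adjusted p = 0.0036), below the fold threshold. Of its exon bases, 17.8% are shared with HOXC6 and HOXC5. HOXC5 itself had too few counts to test, with 8 counts over the control libraries, 30 with hairpin #1 and 26 with hairpin #3. Other annotated genes share 59.9% of its exon bases. HOXC13, a hair and nail factor at the posterior end, was at 2.23, 3.63 and 3.96 CPM in control and at 2.01 to 4.51 CPM with the hairpins, with a pooled log2 fold change of 0.00 ± 0.26.

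HOXC11, a lumbosacral factor of the posterior part of HOXC, was low everywhere and lowest with hairpin #1. It was at 0.919, 1.04 and 1.05 CPM in control, at 0, 0.102 and 0 CPM with hairpin #1 and at 0.294, 0.603 and 0.414 CPM with hairpin #3. No 2 groups overlapped. These values rest on 62 counts in control, 2 with hairpin #1 and 25 with hairpin #3. After library scaling, control was 32.4-fold above hairpin #1 (95% interval 8.59 to 273) and hairpin #3 was 14.1-fold above hairpin #1 (3.52 to 123), with intervals that cover counting error only. The gene passed the count filter through the control libraries alone, the group where it is highest, so its fall is given as values and not counted in support of the list. The pooled fall (log2 fold change −2.12 ± 0.72, edgeR adjusted p = 0.0397) was lost when control A (edgeR adjusted p = 0.084), control B (0.112), control C (0.107), hairpin #1 B (0.072) or hairpin #3 A (0.0543) was left out. Against control the fitted value was −4.76 ± 0.70 with hairpin #1 (edgeR adjusted p = 0.000125), which depends on the prior count and was −7.37 without hairpin #1 B, the library that held both counts. With hairpin #3 it was −1.19 ± 0.46 (edgeR adjusted p = 0.0637), and it was called with the replicate letter as a block (−1.22, edgeR adjusted p = 0.044), without hairpin #1 B (−1.19, edgeR adjusted p = 0.0413) and in the fit of these 2 groups alone (−1.18, edgeR adjusted p = 0.0295). Hairpin #3 against hairpin #1 gave 3.57 ± 0.80 (edgeR adjusted p = 0.0109), which became 6.18 without hairpin #1 B and 3.29 without hairpin #3 B (edgeR adjusted p = 0.0531).

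In HOXA the members moved in different directions. HOXA10, which patterns the uterus and is needed for endometrial receptivity, was at 7.35, 5.12 and 6.30 CPM in control, at 2.61, 1.52 and 1.88 CPM with hairpin #1 and at 2.70, 2.30 and 2.44 CPM with hairpin #3. All 6 knockdown libraries were below control and the hairpins overlapped. HOXA10 fell by 1.48 ± 0.21 on the log2 scale (edgeR adjusted p = 0.00016), 2.79-fold. Its neighbour HOXA9, the oviduct-level factor, was at 6.92, 8.05 and 6.97 CPM in control and at 5.76 to 8.17 CPM in the knockdown libraries. The HOXA9 groups overlapped, and its pooled log2 fold change was −0.05 ± 0.15 (edgeR adjusted p = 0.84). Other genes share 26.3% of the exon bases of HOXA10 and 27.0% of those of HOXA9, among them the antisense gene HOXA10-AS, and reads without strand cannot be divided between them. HOXA10-AS had a mean of 1.70 CPM in control, 2.19 CPM with hairpin #1 and 2.27 CPM with hairpin #3, and did not pass the test.

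HOXA7, a repressor in epidermal keratinocytes, was at 0.677, 1.54 and 1.34 CPM in control, at 1.59, 2.13 and 1.71 CPM with hairpin #1 and at 2.65, 2.85 and 3.40 CPM with hairpin #3. The 3 groups did not overlap. The pooled rise of 1.01 ± 0.33 (edgeR adjusted p = 0.0366) was carried more by hairpin #3 (1.32 ± 0.30, edgeR adjusted p = 0.0036) than by hairpin #1 (0.61 ± 0.31, edgeR adjusted p = 0.141), with 0.72 ± 0.29 between hairpin #3 and hairpin #1 (edgeR adjusted p = 0.134). It was not called in the 3-group model with the mean of both hairpins (0.97, edgeR adjusted p = 0.0116), without control A (0.73), control C (1.0997, edgeR adjusted p = 0.0753), or any hairpin #3 library (0.87 to 0.97, edgeR adjusted p 0.0567 to 0.0639). 62.5% of its exon bases are shared with the antisense gene HOXA-AS3, which was at means of 0.531, 0.540 and 0.582 CPM in the 3 groups.

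HOXA3, which patterns pharyngeal derivatives and is the highest HOXA member, was at 14.6, 16.1 and 15.7 CPM in control, at 17.9, 17.8 and 19.6 CPM with hairpin #1 and at 21.6, 26.3 and 21.5 CPM with hairpin #3. All knockdown libraries were above control, and its log2 fold change of 0.43 ± 0.13 (edgeR adjusted p = 0.0284) was under the fold threshold. HOXA2, a hindbrain and branchial arch factor, passed by adjusted p alone at 0.56 ± 0.18 (edgeR adjusted p = 0.0329). HOXA5 and HOXA6 did not pass, at 0.22 ± 0.19 and 0.02 ± 0.37.

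HOXB held most of the HOX RNA, and none of its 9 tested members was called in the pooled comparison. The pooled log2 fold changes of its 9 tested members ran from −0.02 to 0.68. HOXB7, the highest HOX gene per length, was at 38.4, 43.2 and 41.5 CPM in control, at 46.6, 48.5 and 46.2 CPM with hairpin #1 and at 38.0, 42.0 and 45.2 CPM with hairpin #3. Hairpin #3 lay around the control range, and the pooled log2 fold change was 0.12 ± 0.10 (edgeR adjusted p = 0.391). HOXB9, a thoracic factor also studied in tumour invasion, was at 32.1, 36.2 and 41.1 CPM in control, at 54.7 to 63.9 CPM with hairpin #1 and at 53.1 to 67.9 CPM with hairpin #3. It was above control in all 6 knockdown libraries (0.68 ± 0.11, edgeR adjusted p = 0.00055), at a size below the fold threshold. HOXB2 to HOXB6 and HOXB8 had log2 fold changes of −0.02 to 0.28, with the adjusted p from 0.0701 to 0.937.

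HOXB13, the prostate and caudal factor that lies apart at the posterior end of HOXB, differed between the hairpins. It was at 1.84, 2.39 and 2.29 CPM in control, at 4.29, 3.66 and 2.70 CPM with hairpin #1 and at 1.88, 1.53 and 1.70 CPM with hairpin #3. Hairpin #1 was above both other groups and hairpin #3 overlapped control. The log2 difference of hairpin #3 from hairpin #1 was −1.05 ± 0.24 (edgeR adjusted p = 0.0131). Without hairpin #1 A it was −0.90 (edgeR adjusted p = 0.0432), and without hairpin #3 B −0.99 (edgeR adjusted p = 0.0662), so either library ended the call. The pooled value was 0.28 ± 0.34 (edgeR adjusted p = 0.572).

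HOXD was represented by a single tested member. HOXD4, an anterior-group factor, was at 1.16, 0.746 and 0.382 CPM in control, at 1.45, 0.508 and 0.942 CPM with hairpin #1 and at 0.999, 1.096 and 0.828 CPM with hairpin #3. The 3 groups overlapped (0.35 ± 0.40, edgeR adjusted p = 0.546). A share of 80.5% of its exon bases overlaps another annotated gene, and the same holds for 74.1% of HOXD3 and 58.1% of HOXD1, so the few HOXD counts are uncertain in origin. HOXD3 had 0 counts over the control libraries and at most 4 in any library, and HOXD1 had at most 4.

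Between the hairpins, 2 of the 24 tested members were called (HOXC11 and HOXB13), or 8.33%, against 3.93% of all genes. HOXC4 made it 3 by adjusted p alone, beside 11.6% of all genes. The libraries of the hairpins did not overlap for 8 of the 24, beside 27.7% of all genes, and hairpin #3 was the higher in 6 of these. Across the 24 members, the Pearson correlation of mean log2 levels was 0.983 between the hairpins, 0.921 between control and hairpin #1 and 0.937 between control and hairpin #3. The same values over all 15975 genes were 0.986, 0.936 and 0.939. These are descriptions across genes that share libraries and are not independent replicates.

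**Figure D4:**
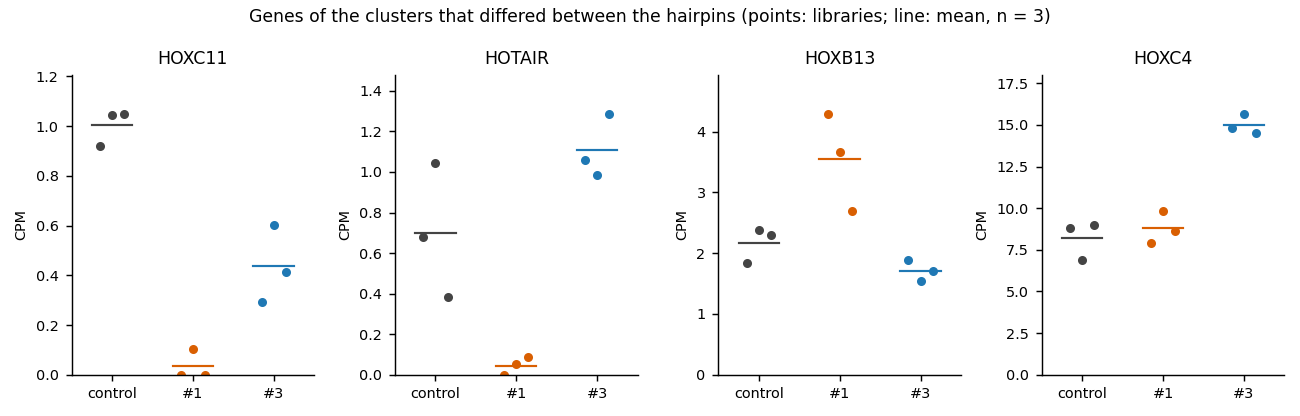
CPM of the 3 HOX members that differed between the hairpins by adjusted p (HOXC11, HOXB13, HOXC4) and of the noncoding gene HOTAIR, each on its own axis from 0, one point per library with the mean as a line (n = 3). HOXC11 and HOTAIR were at 0 to 0.102 CPM with hairpin #1 and above that in every other library.

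HOTAIR, a noncoding RNA transcribed antisense to the HOXC genes and known for recruiting repressive chromatin complexes, was, like HOXC11, at or near 0 with hairpin #1. HOTAIR overlaps the start of HOXC11 on the opposite strand, but they share no exon base in GENCODE 29. It was at 0.677, 1.04 and 0.382 CPM in control, at 0, 0.0508 and 0.0857 CPM with hairpin #1 and at 1.06, 0.986 and 1.29 CPM with hairpin #3. Hairpin #1 was below both other groups, while hairpin #3 and control overlapped. Hairpin #3 exceeded hairpin #1 by 4.41 ± 0.65 (edgeR adjusted p = 0.00069), on 64 counts against 3. HOTAIR passed the count filter only with the hairpin #3 libraries included, the group where it is highest, so this difference is given as values. Unlike HOXC11, whose level with hairpin #3 was below every control library, HOTAIR with hairpin #3 reached the control range.

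Of the other noncoding genes within 10 kb of the clusters, 19 with HOTAIR included were tested, and 2 were called in the pooled comparison, beside 14.7% of all genes. The lincRNA AC012531.25, inside the HOXC6 gene span, was at 0.629, 0.149 and 0.955 CPM in control, at 2.40 to 4.06 CPM with hairpin #1 and at 1.98 to 3.76 CPM with hairpin #3 (2.34 ± 0.45, edgeR adjusted p = 0.0018). AC012531.25 rose in the same part of the cluster as HOXC6, HOXC8 and HOXC9. It passed the count filter only with the knockdown libraries included, the groups where it is higher, so its rise is given as values. The second, RP11-357H14.16 in HOXB, was at 0.782 CPM or less in every library (1.57 ± 0.49, edgeR adjusted p = 0.0273). RP11-357H14.16 also passed the count filter only with the knockdown libraries included, so its rise too is given as values. Neither of these 2 calls is counted in support of the list. None of the 4 tested HOXA and 2 tested HOXD noncoding genes was called.

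The surroundings of the clusters were read from protein-coding neighbours within 1 Mb. Around HOXC, 27 neighbours were tested and 4 were called, 3 higher and 1 lower, or 14.8% against the background of 14.7%. Their median pooled log2 fold change was 0.30, with 22 of the 27 above 0. By adjusted p alone 13 were higher, beside 15.9% of all genes. The called ones were TNS2, a focal adhesion protein (2.15 ± 0.16, edgeR adjusted p = 1.2e-06), ITGA5, the fibronectin receptor subunit (1.25 ± 0.12, edgeR adjusted p = 1.1e-05), MAP3K12, a stress kinase (1.22 ± 0.10, edgeR adjusted p = 1.9e-06), and KRT18, an epithelial keratin (−1.41 ± 0.10, edgeR adjusted p = 4.3e-07). Around HOXA 2 of 8 were called (25%), both lower, with a median of 0.00. Around HOXB 3 of 28 were called (10.7%), all lower, with a median of 0.16, and around HOXD 0 of 3.

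HOX proteins bind DNA together with PBX, MEIS and PKNOX cofactors, of which 8 of 9 were tested and 1 was called, or 12.5% beside 14.7% of all genes. This was MEIS3, at 0.919, 1.04 and 1.86 CPM in control, 5.23 to 10.4 CPM with hairpin #1 and 5.17 to 11.7 CPM with hairpin #3, without overlap (2.66 ± 0.35, edgeR adjusted p = 1.0e-04). PKNOX1 (0.31, edgeR adjusted p = 0.043) passed by adjusted p alone. PBX3 was higher with hairpin #3 than with hairpin #1 (0.62, edgeR adjusted p = 0.0065), as HOXC4 was.

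Of 28 known regulators of the clusters, 21 were tested and 1 was called, or 4.76% against the background of 14.7%. This was ALDH1A3, a retinoic acid synthesising enzyme, at 248, 344 and 516 CPM in control, 39.0 to 95.7 CPM with hairpin #1 and 26.5 to 78.1 CPM with hairpin #3 (−2.67 ± 0.33, edgeR adjusted p = 6.5e-05). By adjusted p alone 5 of the 21 passed, 2 higher and 3 lower, beside 33% of all genes (15.9% higher and 17% lower). The 3 lower were ALDH1A3 and the Polycomb genes EZH2 (−0.45, edgeR adjusted p = 0.043) and EED (−0.34, edgeR adjusted p = 0.029). Polycomb genes keep silent HOX genes repressed, and these values were under the fold threshold. EZH1, SUZ12, BMI1 and RNF2, also on the list, did not pass as lower. A link of these genes to the HOX levels was not tested. CDX1 and CDX2, which activate posterior HOX genes in the gut, were at 0 in all libraries.

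Of 14 Müllerian and urogenital transcription factors, 8 were tested and 3 were called, all higher, beside 14.7% of all genes called and 7.26% called higher. LHX1, needed for Müllerian duct formation, was at 10.3, 11.1 and 9.45 CPM in control, 35.8 to 51.9 CPM with hairpin #1 and 30.7 to 52.8 CPM with hairpin #3 (2.04 ± 0.19, edgeR adjusted p = 5.9e-06). PAX8, the lineage factor of the Müllerian epithelium, rose by 1.07 ± 0.12 (edgeR adjusted p = 2.2e-05). TCF21, a mesenchymal factor of the urogenital ridge, had 0 counts in control and was at least 8.09-fold higher with hairpin #1 and at least 6.28-fold higher with hairpin #3. TCF21 is among the 3 called, but it passed the count filter through the knockdown libraries alone, the groups where it is high. Its rise is therefore given as values and not counted in support of the list. EMX2 was at 0 in every library of the 3 groups.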

How the data were processed

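RNA of OVCA433 cells was sequenced from non-directional, poly(A)-selected libraries. Per the submitters' processing notes, reads were processed with HISAT2 2.0.5 and featureCounts 1.5.0-p3 on hg38. The authors deposited raw read counts per gene, with no normalization or filter. Genes were kept with filterByExpr (minimum count 10, minimum total 15, 3 groups), scaled with TMM and tested with edgeR 4.0.16 in R 4.3.3 (glmQLFit and glmQLFTest, Benjamini-Hochberg over all 15975 genes). The pooled comparison used 6 knockdown against 3 control libraries, and the others a 3-group model. CPM are counts over TMM-scaled totals, and SE was derived from the F statistic. On simulated counts the edgeR step was tested before use. Values per library are given for members called in the pooled or hairpin comparison and for the highest member of each cluster, and HOXC4, HOXC13, HOXA9, HOXB9, HOTAIR and the uncalled genes of the other lists were added after their values were seen. Of those lists, up to 3 called genes with the largest change were named, and in HOXC neighbours all 4. The members, lists and tests were chosen with earlier results of these data known. Some items are not reported here by name. DESeq2 1.42.0 and other settings served as alternatives. Exon overlaps were counted in GENCODE 29, where 38 of the 39 members had the deposited position. The labels do not say that replicate letters mark pairs, so this was checked by the correlation of deviations from the group means. Same-letter pairs were at 0.136 to 0.401 between control and hairpin #3, which were taken as paired. One pair was below 0.1 in each other comparison (0.0515 and 0.0786). The main values of every comparison, hairpin #3 against control included, come from fits without the letter. The fit with the letter as a block is given as an alternative. Libraries of a group differed by more than sampling noise, so none was merged.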

Additional observations from a re-analysis of the deposited data

Results flagged for a closer look

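3 members differed between the hairpins by the test of hairpin #3 against hairpin #1 itself. HOXC11 gave a log2 difference of 3.57 on 25 against 2 counts, HOXB13 gave −1.05, and HOXC4 gave 0.77, the last below the fold threshold. HOXC11 and HOXC4 were higher with hairpin #3, and HOXB13 was higher with hairpin #1. With 3 libraries per group, no single library was tested as standing apart.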

How the results depend on the processing

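Of 1032 repeats under other settings, 936 were labelled unchanged, and 19 changed sign, all of values not called in either setting. For a fold change, unchanged means the same direction and side of the threshold. A count of genes could shift and still be labelled unchanged. The HOX members called in the pooled comparison went from 6 to 4 with the replicate block under that label. With adjusted p alone the HOX count was 10 in the pooled comparison and with each hairpin, and the counts over all genes were 5269 pooled, 6032 with hairpin #1, 5536 with hairpin #3 and 1857 between hairpins. It gave 3 cofactors, 5 regulators, 5 Müllerian factors, 25 neighbours and 4 noncoding genes. With no filter 2 regulators and 1 noncoding gene were called, with a mean of at least 1 CPM 1 noncoding gene and 1 HOX gene between hairpins, with adjusted p under 0.01 1 noncoding gene and 0 HOX genes between hairpins, and with protein-coding genes alone 0 noncoding genes, because they were not in the fit. The 3-group model called 2 regulators in the pooled comparison, and the fit on only the libraries of the hairpins called 1 HOX gene between them. With on set at 5 CPM, 14 members were on with hairpin #1. Leaving out 1 library gave 4 to 6 HOX members pooled, 0 to 2 between hairpins, 1 to 2 regulators and 1 to 2 noncoding genes. The cause of the other shifts was not tested.

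The sign changed between the hairpins for HOXC9 with library totals (0.019) and for HOXD4 with no filter (0.0012), library totals (0.020), DESeq2 (0.0030), the replicate block (0.051) and protein-coding genes alone (0.0022). Leaving out 1 library crossed 0 for HOXD4 with hairpin #1 (−0.057 to 0.78), HOXB7 with hairpin #3 (−0.035 to 0.087) and, between the hairpins, HOXC6 (−0.086 to 0.095), HOXC8 (−0.31 to 0.16), HOXC9 (−0.15 to 0.14) and HOXD4 (−0.30 to 0.39).

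Over all comparisons, same-letter pairs correlated at 0.0515 to 0.466 and others at −0.437 to 0.185, and 7 of 9 libraries correlated best with their own letter. With the letter as a replicate block, 4 HOX members were called in the pooled comparison, with HOXC11 at an edgeR adjusted p of 0.0636 and HOXC9 at a log2 fold change of 0.99, 5 with hairpin #1, 5 with hairpin #3 and 2 between hairpins. With hairpin #3 the block changed the calls of HOXC11 and HOXC9 and of none of the other HOX genes it was run for. Depth limits HOXC11, HOXC5 and the HOXD members, whose values rest on few counts.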

Other observations

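Beyond 10 kb from HOXB but within 1 Mb of it, the adjacent genes ABI3 and GNGT2 differed between the hairpins by more than any HOXB member did. ABI3, an actin-regulating adaptor, was at 0.967, 1.59 and 3.44 CPM in control, at 1.07, 0.356 and 0.814 CPM with hairpin #1 and at 8.41, 6.41 and 6.90 CPM with hairpin #3. The log2 difference of hairpin #3 from hairpin #1 was 3.25 ± 0.42 (edgeR adjusted p = 0.00026). GNGT2, a G protein subunit, differed by 3.32 ± 0.35 (edgeR adjusted p = 6.0e-05). ALDH1A1, another enzyme of retinoic acid synthesis, was at 2.71, 3.03 and 4.25 CPM in control, 1.16 to 4.07 CPM with hairpin #1 and 15.7 to 43.6 CPM with hairpin #3, a hairpin difference of 3.57 ± 0.41 (edgeR adjusted p = 0.00011). These 3 genes were chosen after their values were seen.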
